A study of Mus musculus with 8 samples.

Results

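Carbonic anhydrases catalyse the reversible hydration of carbon dioxide to bicarbonate and a proton, and in the kidney they serve bicarbonate reabsorption and acid secretion along the tubule. Car2 encodes the cytosolic isozyme, which carries most of the renal activity. Car4 and Car15 encode isozymes anchored in the membrane through a glycolipid, and Car12 and Car14 encode isozymes with a transmembrane segment, all acting at the outer face of the cell. The intact Car15 gene is found in mice and many other vertebrates but not in humans.

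The elements described here were all those on the arrays whose platform symbol, or whose symbol in the study's gene tables, was Car15, Car2, Car4, Car12 or Car14. They were 6 of 20749 elements, of which 12797 had a symbol. They covered 4 of the 5 genes, with 3 elements for Car2 and 1 each for Car15, Car12 and Car14. No element carried the name Car4 in the annotation used, so Car4 was not analysed here.

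Whole kidney RNA of 4 male homozygous Umod A227T mice (age given as 19, without a unit) and of 4 male heterozygous Umod C93F mice (age given as 39) was hybridised on spotted dual-colour cDNA arrays. Both lines carry a point mutation of Umod, which encodes uromodulin, a protein of the thick ascending limb, and are kept on the C3HeB/FeJ background. Each mouse was set against a pool of wild-type RNA of its own line and age on 2 arrays, the dyes being exchanged on the second, which makes 16 arrays. The labels describe a pool of 6 control animals, whereas the methods name fewer wild-type littermates, and the methods give each line a slightly lower age, in weeks. The pool is 1 control sample, so no p-value given here holds the spread between wild-type mice. The lines also differ in age, zygosity, pool and array series, and these cannot be told apart. In whole kidney RNA, fewer cells of a type and less RNA per cell cannot be told apart either.

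Ratios are log2 of mutant over wild-type pool. That direction is likely, but the labels do not settle it, because none names the dye of the mutant channel. It follows the sign of the deposited processed ratios and the legends of the study's heat maps. The study names Car15 among the genes up-regulated in A227T and Kap among those down-regulated in C93F, the same direction as here. Its RT-qPCR on other mice gave higher Scd1 and lower Wfdc15b in homozygotes of both lines. Its arrays gave the same directions, although the C93F mice on them were older and heterozygous. A literal reading of the scan names would instead turn every sign and exchange the channels named mutant and pool throughout. An element was tested when its foreground was at least 2 times its local background in at least one channel on both arrays of 3 or more mice of a line. Calls needed a limma adjusted p below 0.10 and a ratio past 1.4-fold. Between 56.7% and 74% of the spots of an A227T array were bright enough, against 15.3% to 42.3% on the dimmer C93F arrays, and 9294 elements were tested in A227T and 3335 in C93F. Umod itself stood at -0.07 in A227T and at -0.32 in C93F, where it passed the adjusted p (0.00356, limma) but not the fold.

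Car15 was the carbonic anhydrase with the highest ratio of the members. Its element MG-14-22o4 gave log2 ratios of 0.74, 0.83, 0.44 and 0.84 in A227T mice 1 to 4. All 4 mice lay above the pool, and mouse 3 was the lowest. The mean was 0.71 ± 0.18 (SD, n = 4), a 1.64-fold higher signal in A227T kidney than in the pool, with a 95% interval of 0.53 to 0.89 and an adjusted p of 0.000261 (limma). By mean ratio it was the element ranked 23 from the top among the 9294 tested. Car15 was thus called, as were 0.807% of all tested elements in the same direction and 1.82% in either direction. The study's own gene table lists Car15 from these same arrays, so the call is not independent of that list.

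The signal of the Car15 element was well above background in both channels of every A227T array. Foreground over local background ran from 5.09 to 6.94 in the mutant channel (median 5.77), against 2.73 to 4.29 in the pool channel (median 3.15). The ranges did not overlap, and the mutant channel was the brighter one on all 8 arrays. The foreground itself had a median of 550.5 intensity units in the mutant channel (351 to 718) and 320.5 in the pool channel (235 to 366). The local background lay at 67 to 118 units under the mutant channel and 74 to 124 under the pool channel.

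**Figure D1:**
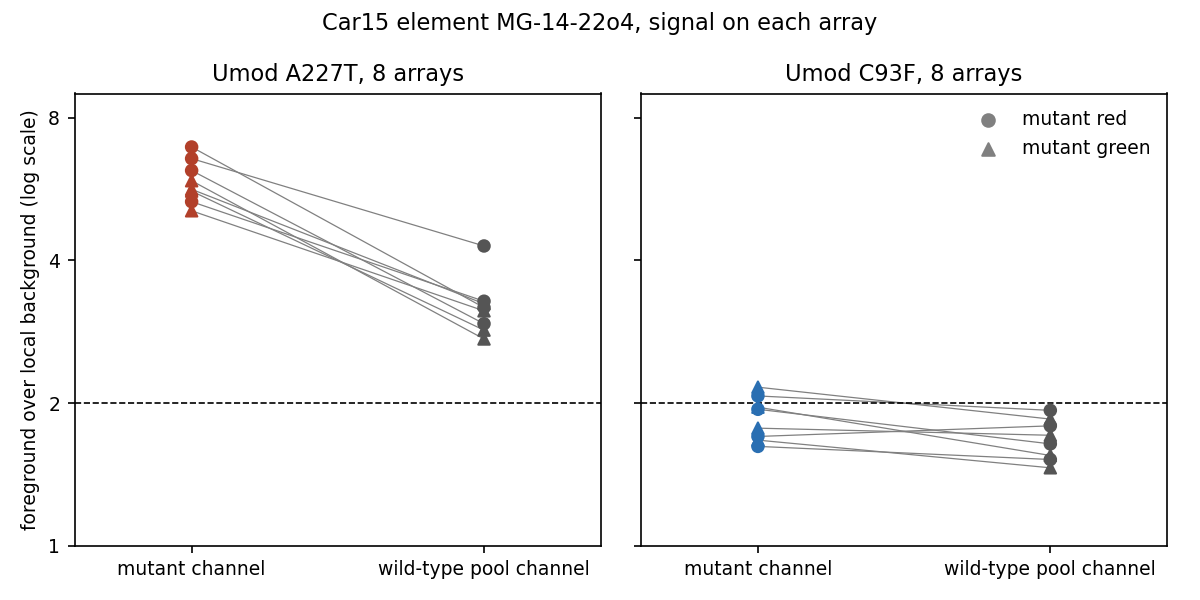
Foreground over local background (log scale) of the Car15 element on each of the 8 arrays of each line, with the mutant channel left of the wild-type pool channel; a line joins the channels of 1 array, circles are arrays with the mutant in red, triangles arrays with the mutant in green, and the dashed line is the minimum of 2 used for testing. In Umod A227T every array has a brighter mutant channel (5.09 to 6.94, against 2.73 to 4.29 in the pool), whereas in Umod C93F 2 of the 16 points reach 2.

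The size of the Car15 ratio differed between the dye orientations. Arrays with the mutant in red gave 0.58 to 1.05 (mean 0.90), and arrays with the mutant in green gave 0.31 to 0.70 (mean 0.52), over the same 4 mice. Every one of the 8 arrays was above 0. Averaging the arrays of a mouse gives both orientations the same weight.

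In C93F kidney the Car15 element was close to background, and it did not pass the filter for testing. Its ratios were -0.01, 0.18, 0.44 and 0.15 in C93F mice 1 to 4, with a mean of 0.19 ± 0.19 (SD, n = 4). Of the 8 arrays, 2 had a mutant channel at 2 times background or more and 0 had such a pool channel. The mean was 0.11 without mouse 3, and 0.30 both with subtraction of the local background and in the deposited processed ratios. Foreground over background was 1.62 to 2.16 in the mutant channel and 1.46 to 1.93 in the pool channel. Of these mice, 3 lay above the pool, and mouse 3 of C93F reached the level of the lowest A227T mouse. Without the filter on dim spots the C93F mean of 0.19 was tested and not called (adjusted p = 0.41, limma). At this signal a difference in C93F was not detected, which does not show that it was absent.

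The difference of Car15 between the lines could be tested only without the filter on dim spots. Over 20532 elements it was then 0.52 (A227T 0.71, C93F 0.19, 95% interval 0.27 to 0.77, adjusted p = 0.0405, limma) and was called, as were 0.55% of these elements in the same direction. This comparison sets a bright element in one line against a dim one in the other. The offset of 50 intensity units that was added before the logarithm draws the ratio of a dim spot toward 0. Subtraction of the local background, which adds no offset, gave 0.85 in A227T and 0.30 in C93F. The part of the offset in the difference was not tested.

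Car2, the main cytosolic isozyme, was read by 3 elements, and none of them was called in either line. Element MG-15-1m11 was the member element bright enough in both lines. In A227T it gave 0.23, 0.26, 0.16 and -0.01 in mice 1 to 4, a mean of 0.16 ± 0.12 (SD, n = 4, 95% interval -0.01 to 0.32, adjusted p = 0.27, limma). It reached 0.32 with median centring in place of loess (adjusted p = 0.0207, limma) and 0.34 in the deposited processed ratios (adjusted p = 0.0201, limma), where all 4 mice lay above 0, and it passed the adjusted p but not the fold in both. In C93F it gave -0.27, -0.09, -0.16 and -0.02, a mean of -0.13 ± 0.11 (95% interval -0.24 to -0.02, adjusted p = 0.0967, limma, and 0.0521 to 0.454 over the alternatives). The C93F mean passed the adjusted p but, at 1.1-fold, was under the fold threshold, and 14.7% of the tested C93F elements passed the adjusted p alone on the lower side. Calls were made for 1.05% of the 3335 tested C93F elements, with 34 lower and 1 higher.

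For this Car2 element the lowest A227T mouse (-0.01) lay just above the highest C93F mouse (-0.02), by a margin smaller than the spread between mice. How many of the other elements also showed no overlap between the lines was not counted. The difference, A227T minus C93F, was 0.29 (95% interval 0.10 to 0.48) with an adjusted p of 0.029 (limma, 8 mice, 2181 elements tested in both lines). It was not called, being under the fold threshold. Of the 2181 elements, 5.27% were called in either direction, and 16.2% passed the adjusted p alone with A227T higher, as this Car2 element did.

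The other Car2 elements were bright only in A227T. MG-3-218p12 gave 0.36, 0.21, 0.16 and 0.13 in A227T mice 1 to 4, all above 0, with a mean of 0.21 ± 0.10 (95% interval 0.05 to 0.38, adjusted p = 0.124, limma). It too was higher with median centring, at 0.39 (adjusted p = 0.00554, limma), and in the deposited processed ratios, at 0.35 (adjusted p = 0.0118, limma), again under the fold threshold. Its foreground over background on the A227T arrays ran from 8.74 to 29.4 in the mutant channel and 5.77 to 21.5 in the pool channel. MG-8-13e2 gave -0.15, 0.05, 0.00 and 0.15, a mean of 0.01 ± 0.12 (95% interval -0.15 to 0.18, adjusted p = 0.942, limma). The means of the 3 elements in A227T therefore spanned 0.20 on the log2 scale, and 10 of their 12 values per mouse were above 0.

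In C93F, MG-3-218p12 averaged -0.13 ± 0.12 and MG-8-13e2 averaged -0.03 ± 0.17 (SD, n = 4), both too dim to be tested. Over the 3 Car2 elements, 3 of 12 C93F values per mouse were above 0. The elements of one gene share the RNA sample of each mouse, so these 12 values are not 12 replicates.

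**Figure D2:**
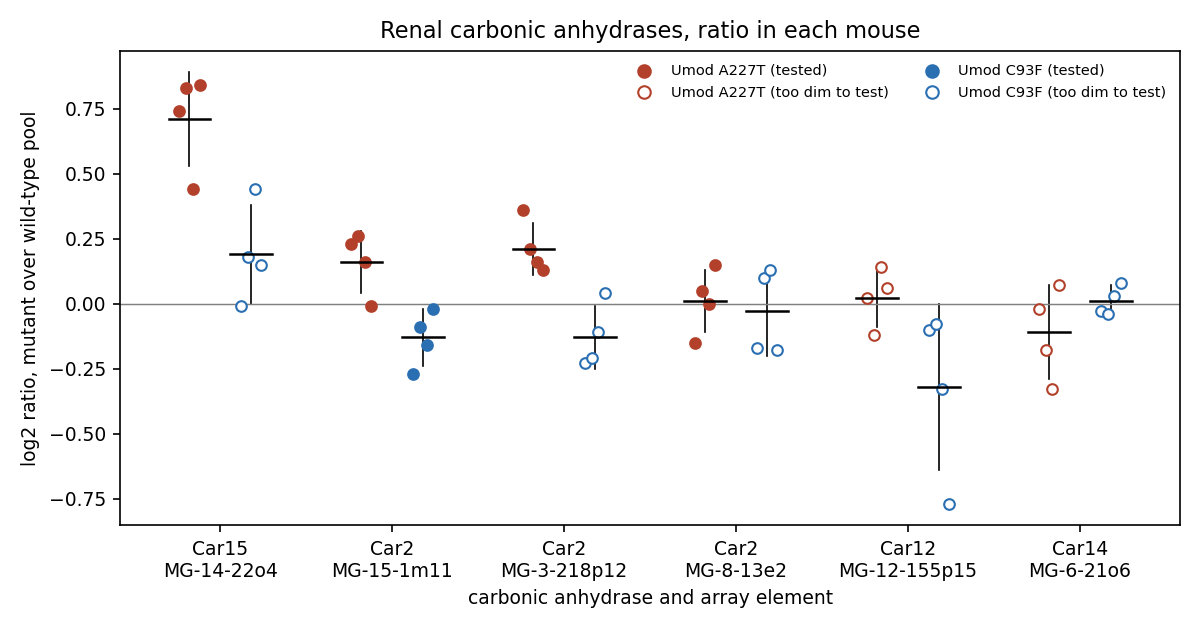
Log2 ratio of mutant over wild-type pool in each mouse (points), with the mean (bar) and SD (line) of 4 mice, for the 6 elements of Car15, Car2, Car12 and Car14, with Umod A227T left of Umod C93F; open points are elements too dim to test. The 4 A227T mice of Car15 (0.44 to 0.84) stand above every other value shown for A227T, and Car12 in C93F shows the widest spread, with 1 mouse at -0.77.

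The ratio of Car2 also varied with the dye orientation. For MG-8-13e2 the gap between orientations was wider than the gap between the lines' means. In A227T, arrays with the mutant in red averaged 0.26 (0.07 to 0.64) and those with the mutant in green averaged -0.23 (-0.64 to 0.03). In C93F the same element averaged 0.18 and -0.24 for these orientations. MG-3-218p12 moved less, with averages of 0.16 and 0.26 in A227T and of -0.18 and -0.07 in C93F. For MG-15-1m11 the averages were 0.26 with the mutant in red and 0.06 with the mutant in green in A227T, and -0.24 and -0.02 in C93F. One array of A227T mouse 3 had a far brighter spot of this element than the other arrays, at 37.5 times background in the mutant channel and 32.3 in the pool channel, and its ratio was -0.08.

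**Figure D3:**
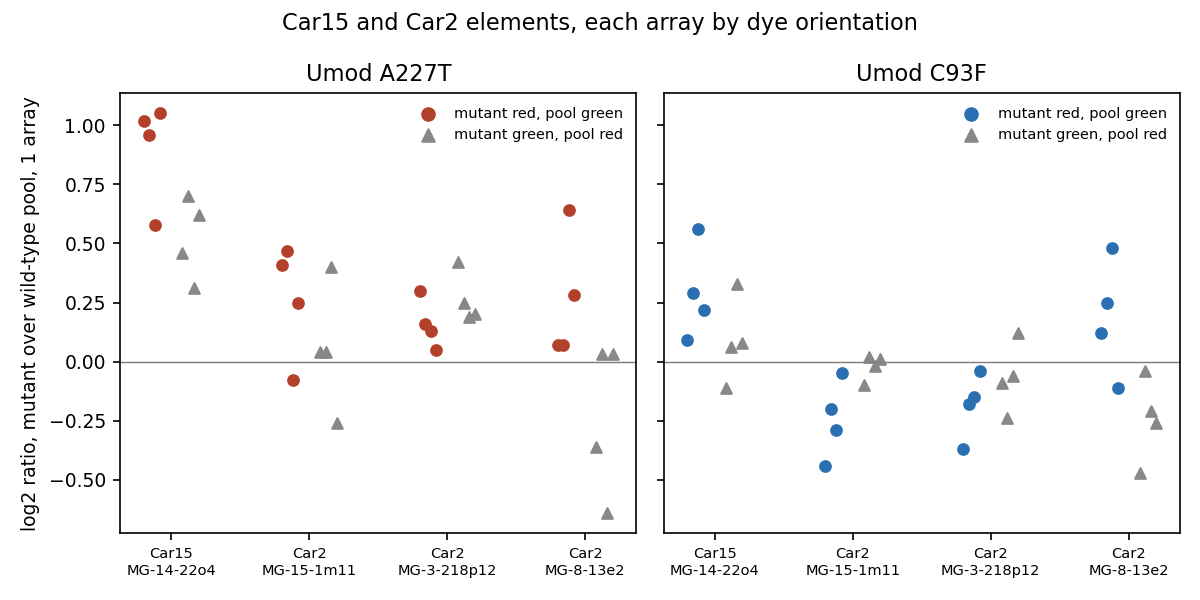
Log2 ratio of mutant over wild-type pool on each array for the Car15 element and the 3 Car2 elements, in Umod A227T (left) and Umod C93F (right); circles are arrays with the mutant in red, triangles arrays with the mutant in green. All 8 A227T arrays of Car15 lie above 0 in both orientations, whereas Car2 element MG-8-13e2 lies higher with the mutant in red than with the mutant in green in both lines.

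Car12 and Car14, the transmembrane isozymes, were too dim to be tested in either line. The Car12 element MG-12-155p15 gave 0.02, -0.12, 0.14 and 0.06 in A227T (mean 0.02 ± 0.11, SD, n = 4), where 1 of 8 arrays had a mutant channel at 2 times background and 0 had such a pool channel. The scanner software had marked the spot as not found on 6 of these 8 arrays. It marked 3100 to 5894 spots on each A227T array and none on the dimmer C93F arrays, so this mark cannot be compared between the lines. In C93F it gave -0.10, -0.08, -0.33 and -0.77 (mean -0.32 ± 0.32), all below 0, and the SD was as large as the mean. Mouse 4 was the lowest, and its arrays had the weakest Car12 signal, at 1.15 and 1.44 times background in the mutant channel and 1.66 and 1.55 in the pool channel. Without that mouse the mean was -0.17, and it was -0.57 both with subtraction of the local background and in the deposited processed ratios.

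The Car14 element MG-6-21o6 gave -0.02, -0.18, -0.33 and 0.07 in A227T (mean -0.11 ± 0.18) and -0.03, -0.04, 0.03 and 0.08 in C93F (mean 0.01 ± 0.06, SD, n = 4 each). In both lines the mice lay on both sides of 0. Foreground over background had a median of 2.24 in the mutant channel and 2.07 in the pool channel of the A227T arrays, just at the limit for testing.

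In all, 4 of the 6 member elements were tested in A227T and 1 of 4 was called, the one of Car15. In C93F 1 of the 6 was tested and 0 were called; that element, of Car2, had an unadjusted p of 0.0226. Set side by side, the A227T means were 0.71 for Car15, then 0.21, 0.16 and 0.01 for the Car2 elements, 0.02 for Car12 and -0.11 for Car14. The 95% interval of Car15 (0.53 to 0.89) lay above those of all 3 Car2 elements, whose upper ends were 0.38, 0.32 and 0.18. The order among the Car2 elements was within their intervals.

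Of the other carbonic anhydrase genes, 10 elements of 6 genes were on the arrays. Car3, encoding a cytosolic isozyme of low activity that is abundant in fat and muscle, was read by 3 elements. MG-15-86j2 was called in A227T at 0.92, 0.50, 0.42 and 0.14 in mice 1 to 4 (mean 0.49 ± 0.33, SD, n = 4, 1.41-fold, adjusted p = 0.0142, limma). It lost the call without mouse 1, at 0.35 (adjusted p = 0.0728, limma). MG-8-26a9 gave 0.87, 0.25, 0.48 and 0.20 (mean 0.45 ± 0.30, adjusted p = 0.02, limma), just under the fold threshold, whereas MG-15-139j4 averaged 0.03 ± 0.16 (adjusted p = 0.874, limma). The elements of Car3 thus disagreed in size, and mouse 1 was the highest for the 2 that passed the adjusted p.

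The mitochondrial isozyme gene Car5b averaged -0.09 ± 0.17 and the cytosolic isozyme gene Car13 averaged -0.06 ± 0.10 in A227T (adjusted p = 0.604 and adjusted p = 0.722, limma). Car1, Car5a and Car11 were too dim to be tested. In C93F the Car3 element MG-15-139j4 was the only one of the 10 that was tested, at 0.10 ± 0.14 (adjusted p = 0.227, limma). In the RefSeq annotation of GRCm38.p6, Car3 and then Car1 lie next to Car2 on its chromosome. Car3 was called on 1 of its 3 elements in A227T and Car2 on 0 of 3.

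The patterns most like the Car2 element MG-15-1m11 over the 8 mice were sought among the 2181 elements tested in both lines, by the mean absolute difference of the log2 ratio. The nearest were Uqcrc2, encoding a subunit of respiratory complex III, at 0.049, Fxyd2, encoding the gamma subunit of the sodium pump, at 0.057, and Eef1a1, encoding a translation elongation factor, at 0.058. The median over the elements was 0.20. Uqcrc2 averaged 0.10 in A227T and -0.10 in C93F, Fxyd2 0.09 and -0.13, and Eef1a1 0.21 and -0.10 in the same order. Car15 was not tested in both lines and has no such comparison.

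None of the tested genes that handle bicarbonate, protons and ammonia along the tubule was called in A227T, where 1.82% of all tested elements were called. At that share, so few genes can well hold no call. Bicarbonate and anion transporters were tested for 4 of 14 listed genes, with a median of -0.04 beside 0.006 over all tested elements. The largest ratios were -0.09 for Slc4a9, an anion transporter of intercalated cells, -0.06 for the sulphate transporter gene Slc26a1 and 0.06 for Slc26a4, encoding pendrin, which exchanges chloride for bicarbonate. The proton pump list, mainly subunits of the vacuolar proton ATPase, was tested for 15 of 23 genes, with a median of 0.00. Its largest ratios were -0.23 for Atp6v0a2, 0.17 for Atp6v1a and -0.17 for Atp6v1b2. The Atp6v0a2 element passed the adjusted p (0.0814, limma) but not the fold, and the other tested elements of this gene stood at -0.04 and -0.01. Of the 15, 7 were above 0.

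The ammonia list had 5 of 10 genes tested, with a median of -0.01, and its largest ratios were 0.23 for the glutamine transporter gene Slc38a3, 0.12 for the ammonia transporter gene Rhbg and -0.09 for Glud1, encoding glutamate dehydrogenase. Among sodium proton exchangers and their scaffolds, 2 of 11 genes were tested. Slc9a3r2, a scaffold gene, stood at -0.47 and passed the adjusted p (0.00594, limma), as 4.57% of all tested elements did on the lower side, but not the fold. With subtraction of the local background and with print-tip loess, 1 gene of this list was called lower. The exchanger gene Slc9a9 stood at -0.10.

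In C93F, where 1.05% of all tested elements were called, none of the tested genes of these lists was called either. The medians were 0.00 over 1 tested bicarbonate transporter gene (Slc4a8, at 0.00), 0.11 over 2 exchanger and scaffold genes, -0.02 over 6 proton pump genes and -0.11 over 4 ammonia genes, beside 0.02 over all tested elements. The exchanger gene Slc9a9 stood at 0.14 (adjusted p = 0.0727, limma, under the fold) and Slc9a3r2 at 0.08. This Slc9a9 element is not the one given for A227T, where it stood at 0.10, too dim to test. The element given for A227T stood at -0.03 in C93F, also too dim to test. Atp6v1a stood at -0.19, Atp6ap1, an accessory subunit gene of the proton ATPase, at -0.12 and Atp6v1b2 at -0.04. Of the ammonia genes, Glul, encoding glutamine synthetase, stood at -0.17, Glud1 at -0.14 and Slc7a8, encoding an amino acid exchanger, at -0.08. Atp6v1a, Atp6ap1, Glul and Glud1 passed the adjusted p (0.0283, 0.0967, 0.0992 and 0.0862, limma) but not the fold. On the lower side 14.7% of all tested elements passed it. A second Glul element passed the adjusted p at -0.35 (0.00161, limma) but not the fold.

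**Figure D4:**
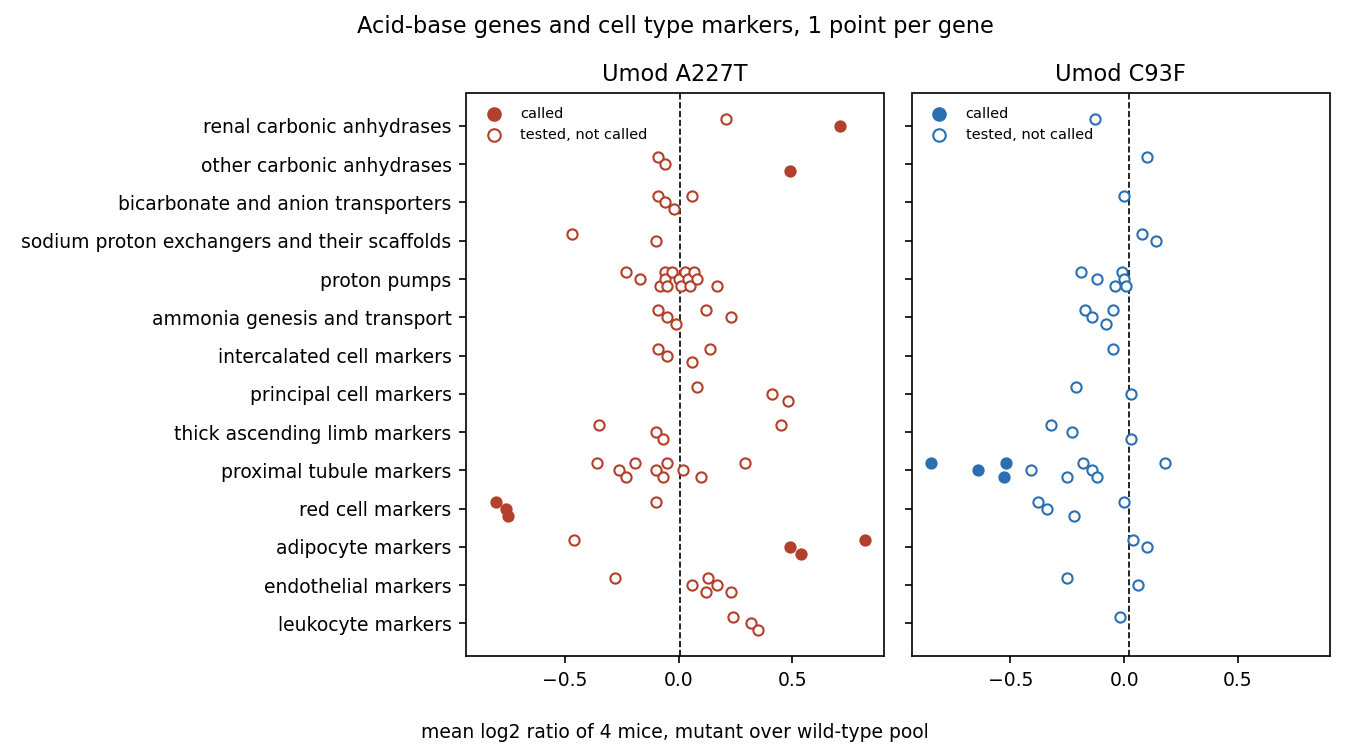
Mean log2 ratio of 4 mice, mutant over wild-type pool, for each tested gene (its brightest element) of the carbonic anhydrase, acid-base and cell type marker lists, in Umod A227T (left) and Umod C93F (right); filled points were called, and the dashed line is the median of all tested elements (0.006 and 0.02). Car15 and Car3 are the filled carbonic anhydrases of A227T, red cell markers are filled on the lower side and adipocyte markers on the higher side in A227T, and proximal tubule markers are filled on the lower side in C93F.

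Markers of the kidney's cell types were read beside the carbonic anhydrases, and their part in the results above was not tested. Calls were made for 1.82% of all tested A227T elements. In A227T, intercalated cell markers had a median of 0.01 over 4 of 12 genes, with none called and Aqp6, a water channel gene, at 0.14 as the largest. Thick ascending limb markers had a median of -0.08 over 4 of 8 genes, with 1 above 0 and none called. With subtraction of the local background, with median centring and in the deposited processed ratios, 1 gene of this list was called higher. Ppp1r1a, a phosphatase inhibitor gene, stood at -0.35 on its brighter element and at -0.01 on the other, and the tight junction gene Cldn10 at -0.10. Proximal tubule markers had a median of -0.08 over 10 of 13 genes, again with none called. Kap, an androgen-regulated gene, stood at -0.36, the sulphate transporter gene Slc13a1 at 0.29 and the organic anion transporter gene Slc22a6 at -0.26. Each passed the adjusted p (0.0128, 0.0468 and 0.0668, limma) but not the fold. Of all tested elements, 4.57% passed the adjusted p on the lower side and 6.2% on the higher side.

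Principal cell markers, of the cells that reabsorb water and sodium in the collecting duct, had a median of 0.41 over 3 of 9 genes in A227T, with none called. The water channel gene Aqp2 stood at 0.48 and Hsd11b2, which encodes the enzyme that inactivates glucocorticoids, at 0.41; both passed the adjusted p (0.00732 and 0.00554, limma), as 6.2% of all tested elements did on the higher side, but not the fold. Fxyd4, encoding a regulator of the sodium pump, stood at 0.08. Of the 3, 2 were called higher with subtraction of the local background, with median centring and in the deposited processed ratios, and 1 with scaling between arrays. Distal convoluted tubule markers had no tested gene in either line.

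Red cells hold much carbonic anhydrase, including the products of Car1 and Car2. Of the 4 tested red cell markers, 3 fell in A227T, with a median of -0.75 over the list, where 1.01% of all tested elements were called lower. Hba-a1 stood at -0.80, Hba-a2 at -0.76 and Hbb-b1 at -0.75, the globin chains of haemoglobin, while Alas2, the haem synthesis gene of red cells, stood at -0.10. The 2 alpha globin genes are nearly identical, so their elements cannot be told apart. Adipocyte markers rose for 3 of 4 tested genes, with a median of 0.52, where 0.807% of all tested elements were called higher: Fabp4, a fatty acid carrier gene, at 0.82, Ucp1, of brown fat, at 0.54 and Car3 at 0.49. Pparg, the fat cell regulator gene, stood at -0.46 and passed the adjusted p (0.0099, limma) but not the fold. Car3 is given by its called element, and its element MG-15-139j4 stood at 0.03. Adipoq, Plin1, Plin4, Cidec and Retn were too dim to test, at -0.08 to 0.19. With print-tip loess 1 of the 4 tested adipocyte genes was called higher, and with no background correction or scaling between arrays 2 were. With subtraction of the local background 3 were called higher and 1 lower. The 3 globin genes were called lower under each of the 8 settings of background, normalization and source of the ratios. The study's RT-qPCR on other mice, homozygotes of both lines and wild-type, found similar Hba-a1 abundance whatever the genotype. Endothelial markers had a median of 0.12 over 6 genes, with none called (Tek at 0.23 and Emcn at 0.17). Pecam1, at -0.28 on its brighter element, passed the adjusted p (0.0376, limma) but not the fold, and its other element stood at 0.01. Leukocyte markers had a median of 0.32 over 3 genes, Lyz2 at 0.35, Cd74 at 0.32 and Itgam at 0.24. All 3 passed the adjusted p (0.016, 0.0266 and 0.0826, limma), each higher in 4 of 4 mice, but not the fold, and 1 was called with median centring and in the deposited processed ratios.

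In C93F, 4 of 10 tested proximal tubule markers fell, with a median of -0.33, where 1.02% of all tested elements were called lower. The count was 2 with no background correction and with print-tip loess, 3 of 9 in the deposited processed ratios and 5 with subtraction of the local background. The 4 were Kap at -0.85, the phosphate transporter gene Slc34a1 at -0.64, Slc22a6 at -0.53 and the dicarboxylate transporter gene Slc13a3 at -0.52. Car14, an isozyme gene of the proximal tubule in mice, stood at 0.01 in the same kidneys, on a dim element. Red cell markers had a median of -0.28 over 4 genes, with none called, and 1 was called lower with subtraction of the local background. Hbb-b1 stood at -0.38, Hba-a1 at -0.34 and Hba-a2 at -0.22. Each passed the adjusted p (0.000923, 0.00469 and 0.0249, limma), as 14.7% of all tested elements did on the lower side, but not the fold. Of the thick ascending limb markers, Umod stood at -0.32 and Cldn10 at -0.23. Cldn10 passed the adjusted p (0.0432, limma) but not the fold, and its other tested element stood at -0.06. The 1 tested intercalated cell marker, the ammonia transporter gene Rhcg, stood at -0.05, and the principal cell markers Aqp4 and Aqp2 at -0.21 and 0.03. Aqp4 passed the adjusted p (0.0074, limma) but not the fold. Car3 and Plin4, the tested adipocyte markers, stood at 0.10 and 0.04, with Car3 on another element than the one called in A227T. The endothelial markers Cdh5 and Plvap stood at -0.25 and 0.06, and the leukocyte marker Lyz2 at -0.02. Cdh5 passed the adjusted p (0.0151, limma) but not the fold.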

How the data were processed

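The deposited scanner files hold unnormalized foreground and background intensity for both channels of 20794 spots, read by the authors' scanner. A flag for spots not found marked spots on the A227T arrays only. The authors also deposited processed log2 ratios, 1 column per mouse, whose centring and direction are not stated. Set against the scans they were on a log2 scale, and their column medians were 0.007 to 0.047. The scans of C93F mice 1 and 2 matched each other's columns (r = 0.87 and r = 0.873), which leaves means unchanged. SAM was the authors' test, after filters on background and on dye-swap consistency. No per-mouse column was left unassigned.

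Ratios were computed in R 4.3.3 with limma 3.58.1: normexp background correction (offset 50), loess within each array with no weight for spots not found, signs turned to mutant over pool, and the 2 arrays of a mouse averaged. Spots were joined by position, since the lines' scans list them in different orders, and 217 positions carry another clone name in C93F. The platform names 1 gene at 12772 positions and none at 8022. Each line was tested against 0, and the lines against each other, with lmFit and eBayes, with Benjamini-Hochberg adjustment over all tested elements. The thresholds of a call were an adjusted p of 0.10 and 1.4-fold. Array number limits the precision, and the files give no read depth. Lists take the brightest tested element of each gene in each line, which can differ between the lines. Some list genes given without an adjusted p passed it but not the fold.

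The members, lists and tests were chosen with earlier results of these data known. Named were all members, all other carbonic anhydrases, the called genes of each other list or otherwise its 3 largest ratios, and the 3 nearest patterns; the second elements of Glul and Ppp1r1a were added after their values were seen, and 1 gene that this rule names is not reported here. The replicate numbers of the lines name unrelated mice and pair nothing. The steps were tested on simulated data. Alternatives covered background, normalization, filters, models, SAM, thresholds, the processed ratios, direction and the omission of each mouse.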

Additional observations from a re-analysis of the deposited data

Results flagged for a closer look

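The Car2 element MG-15-1m11 differed between the lines by 0.29 on the log2 scale (0.16 in A227T and -0.13 in C93F, adjusted p = 0.029, limma), which drew attention because the difference itself passed the adjusted p, although not the fold. It was above 0 under all 22 alternatives that keep the direction, at 0.23 to 0.47, with adjusted p between 0.0016 and 0.167, and -0.29 with the direction turned.

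In 3 of 22 sets of 4 mice, 1 mouse lay far from the others, where chance gives about 1 in 20. Car5b stood at 0.17 in A227T mouse 3, against -0.20 to -0.14 in the other mice, and at -0.25 in C93F mouse 3, against 0.01 to 0.04. Car3 element MG-15-139j4 stood at -0.21 in A227T mouse 4, against 0.09 to 0.14. None of the 6 member elements was among them.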

How the results depend on the processing

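Car15 in A227T was called under all 17 alternatives that keep the direction, at 0.65 to 0.92 (0.67 to 0.80 when each mouse was left out, adjusted p 0.000636 to 0.00567, limma). With the direction turned it was -0.71, and Car2 was -0.16, -0.21 and -0.01 in A227T, 0.13 in C93F and -0.29 for the difference between the lines. The Car15 element was the only member element called under each alternative. Without the filter on dim spots it was called in 2 comparisons, in A227T and for the difference between the lines. The calls over all elements, 169 in A227T, 35 in C93F and 115 for the difference, were 161 to 201, 35 to 39 and 103 to 136 when mice were left out. Subtracting the local background gave 295 (161 higher and 134 lower), 73 and 207; no background correction gave 23 in C93F. For the difference, median centring gave 175 (145 higher and 30 lower, against 46 and 69), no filter gave 218 and the deposited processed ratios gave 177; the causes were not tested. Some values near 0 changed sign. With mice left out, Car2 element MG-8-13e2 in A227T was -0.03 (without mouse 4) to 0.07, Car3 element MG-15-139j4 -0.01 (without mouse 3) to 0.11, and the line difference of this Car3 element -0.12 to 0.01 (without A227T mouse 4); print-tip loess gave it -0.04 in A227T. The called Car3 element lost its call at 0.47 with no background correction, 0.43 with print-tip loess, 0.47 with scaling between arrays and 0.35 without mouse 1, whereas MG-8-26a9 gained one under 5 alternatives. With subtraction the dim Car12 element in A227T stood at 1.22. The mice of the lines share only numbers (correlations of deviations -0.063 to -0.002, none best with its own number). The replicate block left the Car2 difference at 0.29 (adjusted p = 0.0468, limma).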
